A study of Mus musculus with 73 samples.

Results

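Loss of TREM2 was examined in microglia of the 5xFAD amyloid model at 4 months of age, by comparing 4 5xFAD;TREM2-/- libraries with 9 5xFAD libraries. These 13 libraries, chosen by their genotype and age labels, were among 73 in the series. The series profiled gene expression by RNA sequencing of polyadenylated transcripts in brain cells sorted for CD11b and CD45, and its design also covers CD33 knockout, double knockout and an age of 8 months. All animals carried the strain label C57BL/6. 5xFAD mice express mutant human transgenes, APP among them, under a Thy1 promoter, which is active in neurons, and these transgenes were present in both groups compared. The 5xFAD;TREM2-/- mice lacked TREM2 in addition. The labels do not say how the allele was made. Wild-type (WT) mice of the same age, with neither transgenes nor knockout, gave 7 libraries that were used as a reference level. Nothing in the labels states that each library came from a separate animal, so p-values measure the spread between these libraries, which may be technical.

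TREM2 is a surface receptor of microglia that binds lipids, lipoproteins and other ligands and signals through the adaptor TYROBP (DAP12), whose phosphorylated ITAM recruits the kinase SYK. In amyloid models, microglia around plaques take on a disease-associated (DAM) state. Its early genes, such as Tyrobp and Apoe, are described as not requiring TREM2, while its later genes, such as Cst7, Lpl, Axl, Clec7a and Itgax, are described as requiring it.

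Recovered totals ran from 31665061 to 36122276 reads per library in 5xFAD;TREM2-/-, from 28942881 to 79654244 reads in 5xFAD and from 30996313 to 40358245 reads in WT. Levels are RPKM (reads per kilobase of gene, scaled to the depth of the library), and changes are log2 differences of RPKM + 0.5 with their standard error (SE), which understate changes of genes with low values. Means are given ± SD over 4 knockout, 9 5xFAD or 7 WT libraries. A gene was called when its adjusted p from limma was under 0.05. The 5xFAD;TREM2-/- libraries carried the replicate numbers 1, 3, 7 and 9, and their values are given in that order. Reads of Xist, which marks female cells, and of the Y-linked genes Ddx3y and Eif2s3y showed 2 5xFAD;TREM2-/- libraries with Xist alone, 1 (replicate 1) with Y-linked reads alone and 1 (replicate 9) with both, against 4 and 5 5xFAD libraries with Xist or Y-linked reads alone. The endothelial marker Cldn5 reached 347 RPKM in 5xFAD replicate 1 and lay between 47.0 and 90.2 RPKM in the other 5xFAD libraries. It lay between 55.3 and 141 RPKM in 5xFAD;TREM2-/-.

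Trem2 (ENSMUSG00000023992, chromosome 17, 48346401 to 48354147 on GRCm38) was examined first. It lay at 31.1, 36.3, 32.6 and 29.2 RPKM in the 4 5xFAD;TREM2-/- libraries, whereas in 5xFAD the lowest, median and highest values were 649.8, 734 and 875 RPKM. The knockout level was 4.36% of the 5xFAD mean (log2 change -4.49 ± 0.102, adjusted p = 1.18e-20). All 4 libraries therefore matched their label, and the remaining reads cannot be placed within the gene from these values. Cd33, which encodes the sialic acid-binding inhibitory receptor targeted elsewhere in the series, lay at 189, 155, 146 and 146 RPKM in 5xFAD;TREM2-/- and between 115 and 152 RPKM in 5xFAD, with ranges that overlapped (log2 change 0.23 ± 0.432, adjusted p = 0.945). The double knockout libraries in the shared fit, which also lack CD33 by their label, lay at 14.02 RPKM in replicate 1 and at 0 in replicate 2. Without them the SE was 0.0772 and the adjusted p 0.157. At 8 months Cd33 was higher in the knockout (log2 change 0.37 ± 0.0943, adjusted p = 0.00761). Mouse App, the gene related to the human transgene, ranged from 128 to 164 RPKM in 5xFAD;TREM2-/- and from 121 to 223 RPKM in 5xFAD (log2 change -0.04 ± 0.116, adjusted p = 0.974).

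Of 13024 genes tested, 311 were called (2.39%), with 51 higher (0.392%) and 260 lower (2.00%) in 5xFAD;TREM2-/-. At least a 2-fold change was seen for 7 of the higher and 70 of the lower genes. Over all genes tested the median log2 change was 0.02. The ranges of the 2 groups did not overlap for 189 of the called genes, against 268 of all genes tested (2.06%). With TREM2-/- replicate 1 left out 157 genes were called, and with TREM2-/- replicate 9 left out 207. The sign of every one of the 311 changes stayed the same in both of these fits. These genes were selected in the same libraries, so an unchanged sign is not separate support.

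Late DAM genes were among those that fell most. Cst7, which encodes cystatin F, an inhibitor of lysosomal cysteine proteases, lay at 38.3, 130.2, 76.9 and 80.1 RPKM in 5xFAD;TREM2-/-. In 5xFAD its lowest, median and highest values were 261, 499 and 800.5 RPKM, so every knockout library lay below every 5xFAD library. The mean was 6.43-fold lower (log2 change -2.70 ± 0.284, adjusted p = 1.6e-06), yet it stayed above WT, where Cst7 ranged from 7.28 to 10.01 RPKM (log2 difference from WT 3.09, adjusted p = 5.77e-07). Within libraries holding Xist reads alone, Cst7 lay at 76.9 and 130.2 RPKM in the knockout and from 499 to 800.5 RPKM in 5xFAD. Within those holding Y-linked reads alone, it lay at 38.3 RPKM in the knockout and from 261 to 593 RPKM in 5xFAD. In sorted bulk cells, fewer cells in a state and less RNA per cell in that state cannot be told apart.

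Axl, a receptor kinase for phosphatidylserine-bound ligands on dying cells, lay at 4.61, 11.1, 8.23 and 8.38 RPKM in 5xFAD;TREM2-/-, against a lowest, median and highest value of 24.2, 64.1 and 94.7 RPKM in 5xFAD. It fell 7.26-fold (log2 change -2.70 ± 0.285, adjusted p = 1.6e-06), and its difference from WT, where the mean was 3.77 ± 0.57 RPKM (SD, n = 7), did not pass (log2 difference 0.96, adjusted p = 0.311). Lpl, the lipoprotein lipase that releases fatty acids from triglycerides, lay at 7.69, 11.1, 8.12 and 9.52 RPKM, against 30.1, 42.7 and 70.0 RPKM for the lowest, median and highest 5xFAD library. The groups did not overlap (log2 change -2.28 ± 0.181, adjusted p = 1.23e-08), and Lpl in the knockout remained above WT (log2 difference 1.61, adjusted p = 1.62e-05). Clec7a, the dectin-1 receptor for fungal beta-glucans, lay at 17.9, 32.6, 23.97 and 27.7 RPKM. In 5xFAD its lowest, median and highest values were 59.6, 89.4 and 163 RPKM, again with no overlap (log2 change -1.95 ± 0.208, adjusted p = 1.67e-06). Itgax, the CD11c integrin subunit, had a mean of 10.4 ± 3.58 RPKM (SD, n = 4) in the knockout and 48.9 ± 20.5 RPKM (SD, n = 9) in 5xFAD, a log2 change of -2.12 ± 0.272 (adjusted p = 3.01e-05). Ch25h, the cholesterol 25-hydroxylase, was 2.93 ± 1.08 RPKM in the knockout against 14.2 ± 7.2 RPKM in 5xFAD (log2 change -1.996 ± 0.31, adjusted p = 0.000295).

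**Figure D1:**
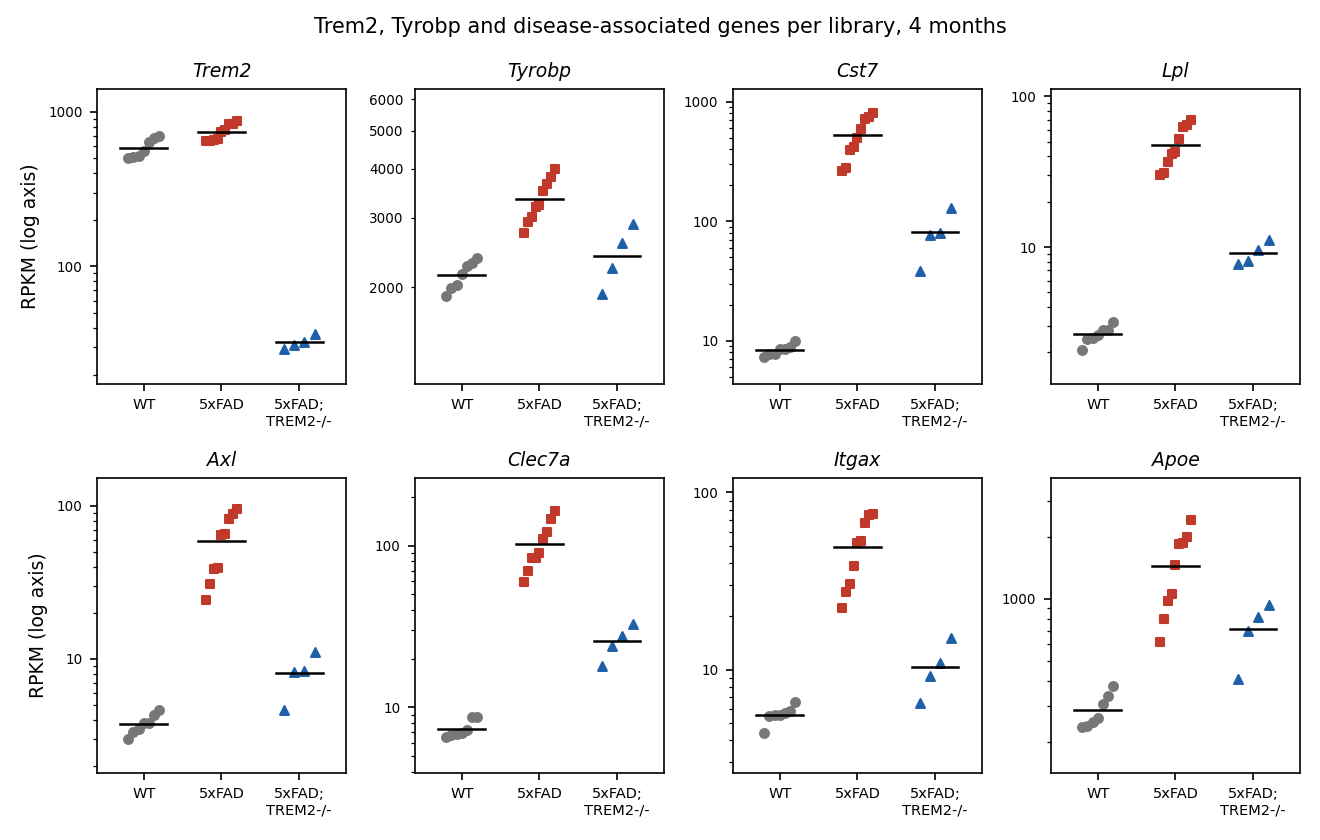
RPKM per library on a log axis for Trem2, its adaptor Tyrobp and 6 DAM genes at 4 months, with 7 WT libraries (circles), 9 5xFAD libraries (squares) and 4 5xFAD;TREM2-/- libraries (triangles); black lines are group means. For Cst7, Lpl, Axl, Clec7a and Itgax the knockout libraries lie below all 5xFAD libraries, while for Tyrobp and Apoe the ranges overlap.

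Of the 25 tested late (stage 2) DAM genes, 16 fell (64.0%, against 2.00% over all genes) and 0 rose in limma. All 25 log2 changes were below 0, with a median of -0.79. By voom on recovered reads 15 fell and 0 rose. With limma 24 had an unadjusted p under 0.05 (96.0%, against 11.6% over all genes in either direction). The count lay between 11 and 19 under the other settings tried, apart from the fit with replicate numbers as a block. Among them Ank, a transporter that controls extracellular pyrophosphate, was 30.1 ± 6.2 RPKM in the knockout against 93.8 ± 32.5 RPKM in 5xFAD (log2 change -1.57 ± 0.207, adjusted p = 4.23e-05). Cd52, a small surface glycoprotein, fell from 162 ± 48.4 to 61.5 ± 11.7 RPKM, and the growth factor gene Igf1 from 3.13 ± 1.32 to 0.861 ± 0.159 RPKM. The chemokine gene Ccl6 was 75.8 ± 4.52 RPKM in the knockout against 149 ± 35.9 RPKM in 5xFAD (log2 change -0.93 ± 0.138, adjusted p = 0.000158) and stayed above its WT mean of 47.3 ± 6.07 RPKM (adjusted p = 0.025). The 9 members that were not called included Cd68, Csf1, Gpnmb, Spp1 and Lgals3.

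Of the 9 early (stage 1) DAM genes, 4 fell (44.4%, against 2.00% over all genes), with a median log2 change of -0.42. Tyrobp lay at 1916, 2896, 2585 and 2232 RPKM in the knockout, against 2748, 3235 and 3987 RPKM for the lowest, median and highest 5xFAD library. The ranges overlapped through replicate 3, and the call (log2 change -0.48 ± 0.102, adjusted p = 0.00741) was lost without TREM2-/- replicate 1. B2m, the light chain of MHC class I, lay between 1681 and 1849 RPKM in the knockout and between 2072 and 3185 RPKM in 5xFAD, with no overlap (log2 change -0.51 ± 0.104, adjusted p = 0.00516). Apoe, the lipid carrier, lay at 407, 932, 815 and 701 RPKM in the knockout and between 619 and 2417 RPKM in 5xFAD. Its mean in the knockout was 49.2% of the 5xFAD mean, but over all libraries the ranges overlapped and it was not called (log2 change -0.96 ± 0.292, adjusted p = 0.0944). Within libraries holding Xist reads alone, Apoe lay at 815 and 932 RPKM in the knockout and from 1456 to 2417 RPKM in 5xFAD. Within those holding Y-linked reads alone, it lay at 407 RPKM in the knockout and from 619 to 1996 RPKM in 5xFAD. The count of early genes was 1 without TREM2-/- replicate 1, 2 without TREM2-/- replicate 9, and 7 without 5xFAD replicate 11 or without 5xFAD replicate 13. With only the 2 groups in the fit it was 0, with the title tag as a term 2, with an endothelial or an Xist covariate 7, and without the libraries that hold both Xist and Y-linked reads 1. Replicate 1, the only knockout library with Y-linked reads alone, had the lowest Cst7, Axl, Itgax, Apoe and Tyrobp of the 4. Within 5xFAD, the libraries with Xist alone lay above those with Y-linked reads alone for Axl (65.2 to 94.7 against 24.2 to 64.1 RPKM), Lpl (51.9 to 70.0 against 30.1 to 42.7 RPKM), Clec7a (110.3 to 163 against 59.6 to 89.4 RPKM) and Itgax (52.9 to 75.1 against 22.3 to 51.5 RPKM). For each of these genes the knockout libraries with Xist alone also lay below every 5xFAD library, and so did the one with Y-linked reads alone. With Xist as a covariate 485 genes were called.

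Among genes of TREM2 signalling other than the receptor, 2 of 18 fell (11.1%, against 2.39% called over all genes), Tyrobp and the transmembrane adaptor gene Lat2. The other 16 were not called, including Syk and Plcg2, which encode the kinase and the phospholipase downstream of TYROBP. Lat2 lost its call without any 1 of TREM2-/- replicates 1, 7 and 9 or 5xFAD replicates 6 and 8. The Src-family kinase gene Fgr, named after its values were seen, was 1.52 ± 0.289 RPKM in the knockout against 5.81 ± 2.22 RPKM in 5xFAD (log2 change -1.57 ± 0.205, adjusted p = 3.24e-05) and did not overlap between groups.

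Homeostatic microglial genes, the set expressed by surveying microglia, did not pass in the fit of all libraries. Of 22 tested, limma called 0 and voom called 0, although 9 (40.9%) were higher at an unadjusted p under 0.05, against 1514 of all 13024 genes (11.6%) in either direction, and 21 log2 changes were above 0, with a median of 0.18. The count higher was 1 without 5xFAD replicate 7 or 11, 2 without 5xFAD replicate 13, 2 with array weights, 3 with an endothelial covariate and 1 with an Xist covariate. The ADP receptor gene P2ry12 lay at 1042, 649, 707 and 650.0 RPKM in the knockout and between 430.5 and 786 RPKM in 5xFAD (log2 change 0.31 ± 0.15, adjusted p = 0.444). Tmem119 lay at 1495, 1617, 1511 and 1413 RPKM, against 1077, 1238 and 1500.0 RPKM for the lowest, median and highest 5xFAD library and 1556 to 2179 RPKM in WT. Its ranges overlapped (log2 change 0.27 ± 0.104, adjusted p = 0.236). Of 22 microglial transcription factors and 12 complement genes, limma and voom called 0, with 3 and 2 at an unadjusted p under 0.05, which is close to the share over all genes (11.6%).

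**Figure D2:**
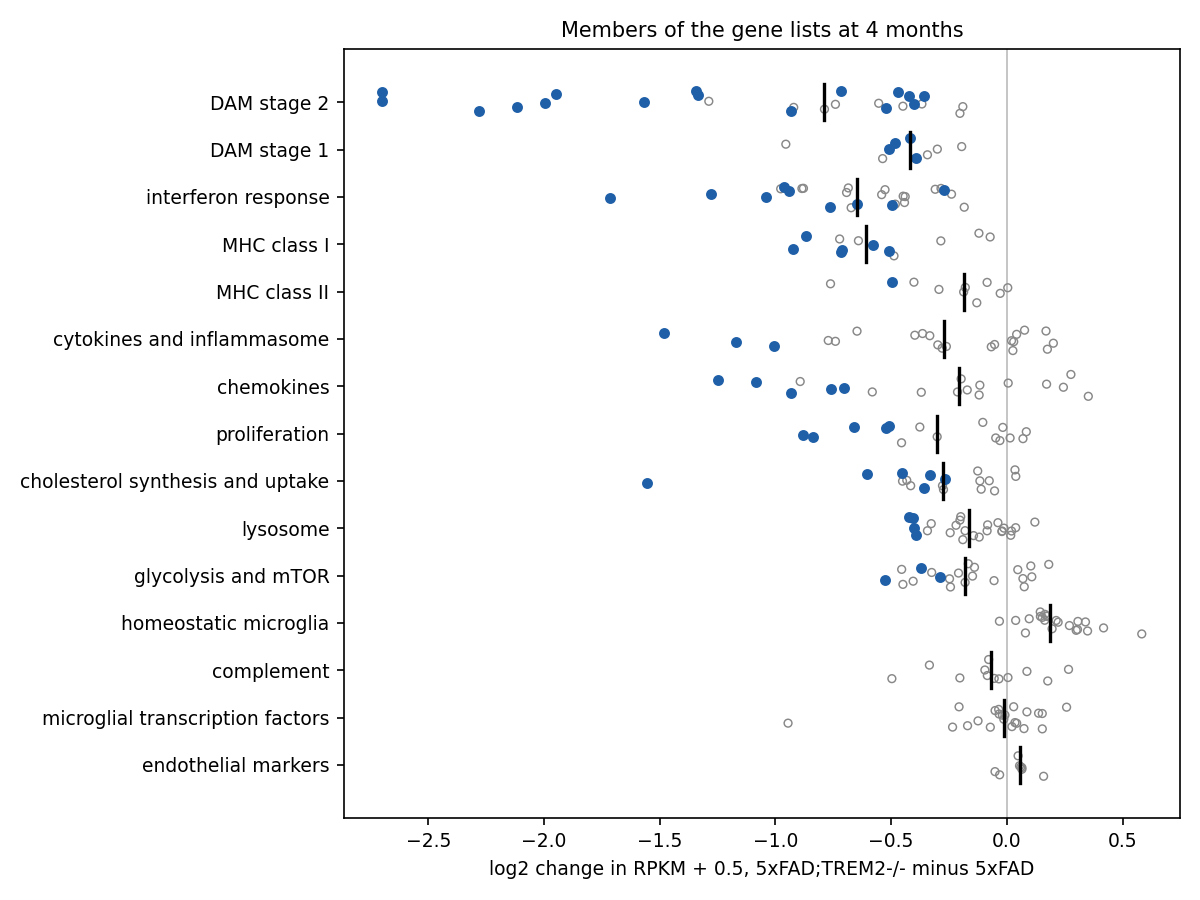
Each point is 1 tested gene of a list, placed by its log2 change in 5xFAD;TREM2-/- minus 5xFAD at 4 months; filled points were called, open points were not, and black bars are list medians (vertical scatter within a row has no meaning). Late DAM, interferon and MHC class I genes lie left of 0, with medians of -0.79, -0.65 and -0.61, and homeostatic genes lie mostly right of it, with a median of 0.18 and no call.

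Of 25 interferon-response genes tested, 9 fell (36.0%, against 2.00% over all genes) and 0 rose. All 25 log2 changes were below 0, and the median was -0.65. Ifi27l2a, an interferon-induced gene, lay at 13.7, 37.7, 29.6 and 29.5 RPKM in the knockout, against 48.6, 102 and 176 RPKM for the lowest, median and highest 5xFAD library (log2 change -1.71 ± 0.319, adjusted p = 0.00224). The groups did not overlap, and the difference from the WT mean of 13.6 ± 4.09 RPKM did not pass (adjusted p = 0.456). Ifi204, a sensor of DNA, fell from 9.17 ± 3.53 to 3.29 ± 0.649 RPKM (adjusted p = 0.00108). Ifit2, which binds RNA, fell from 7.66 ± 2.31 to 3.58 ± 0.666 RPKM (adjusted p = 0.00499). Oas1a, which senses double-stranded RNA, lay at 2.45, 5.29, 3.98 and 4.11 RPKM and overlapped 5xFAD (5.28 to 13.5 RPKM) by replicate 3 (log2 change -1.04 ± 0.215, adjusted p = 0.00631). The count depended on single libraries, with 3 without TREM2-/- replicate 1, 16 without 5xFAD replicate 10 and 14 without 5xFAD replicate 11. It also depended on the fit, with 3 for only the 2 groups and 5 with the title tag as a term. Without the libraries that hold both Xist and Y-linked reads it was 4. With an endothelial covariate it was 17, and with an Xist covariate 18.

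A list of 12 MHC class I genes leaves out H2-T24, which rose, and H2-M3, which fell. Of these 12 genes 6 fell (50.0%, against 2.00% over all genes) and 0 rose, with a median log2 change of -0.61. Without TREM2-/- replicate 1, 3 fell, and with only the 2 groups in the fit 2 fell. H2-T23, the mouse Qa-1 molecule, lay at 24.4, 32.2, 25.1 and 25.5 RPKM, against 40.3, 51.6 and 64.1 RPKM for the lowest, median and highest 5xFAD library. It was below 5xFAD (log2 change -0.92 ± 0.0994, adjusted p = 1.6e-06) and also below WT (log2 difference -0.58, adjusted p = 0.00506). H2-T22 had the same order, with 3.48 ± 0.441 RPKM in the knockout, 6.81 ± 1.11 in 5xFAD and 4.87 ± 0.452 in WT. The classical class I heavy chain gene H2-D1 was 315 ± 68.8 RPKM in the knockout against 523 ± 136 RPKM in 5xFAD (log2 change -0.71 ± 0.166, adjusted p = 0.0161), with ranges that overlapped and a call that was lost without TREM2-/- replicate 1. These H2 genes lie on chromosome 17 as Trem2 does, belong to a family of near-identical copies among which reads may be split, and H2-T22, H2-T23 and H2-T24 overlap the antisense gene A930015D03Rik. That gene, named after its values were seen, had a mean of 2.76 ± 0.193 RPKM in the knockout and between 0.112 and 1.07 RPKM in 5xFAD, without overlap (log2 change 1.83 ± 0.24, adjusted p = 3.2e-05). The kit marked strand, but the strand setting of the count is not given in the sources used here, so reads of these genes and of the antisense gene cannot be told apart.

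Promoters of the interferon and MHC class I genes are shown because many interferon-induced genes are known to carry the interferon-stimulated response element, written here as GAAA, any 2 bases and GAAA again, and searched on both strands. Promoters came from RefSeq on GRCm38.p6 and ran from 250 bases before to 50 bases after the gene start. Of 27025 genes with such a promoter, 1079 (3.99%) held the letters. Of 18 matched interferon-response genes, 11 held them, and so did 3 of 10 MHC class I genes, 1 of 21 late DAM genes and 0 of 16 homeostatic genes. Of those 11, only Oas1a was called, while Bst2, Ifit1, Ifit3, Isg15 and Rsad2 were among those not called. Ifit2, Irf9, H2-D1 and H2-K1 fell and did not hold the letters. The 4 genes of the interferon and MHC class I lists that fell and held the letters are shown, with capitals marking the match; a match is a description of the sequence, not a bound site. The windows were chr5:120907511-120907570 for Oas1a, chr2:122147523-122147582 for B2m, chr17:36032791-36032850 for H2-T23 and chr17:36042899-36042958 for H2-T22. They are written 5′ to 3′ on the strand of each gene, which is the plus strand for B2m and the minus strand for the others.
Oas1a: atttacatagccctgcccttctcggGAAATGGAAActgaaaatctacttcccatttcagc
B2m: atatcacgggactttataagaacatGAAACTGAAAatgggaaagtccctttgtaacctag
H2-T23: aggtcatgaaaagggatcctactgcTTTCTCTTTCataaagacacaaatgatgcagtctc
H2-T22: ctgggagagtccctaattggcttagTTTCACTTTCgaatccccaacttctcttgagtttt
In Oas1a the match began 20 bases before the gene start and a further match overlapped it, beginning 14 bases before the start. In B2m it began 139 bases before the start. In H2-T23 and H2-T22 the letters lay on the opposite strand, with their first base 124 and 191 bases before the start.

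Among cytokine and inflammasome genes, 3 of 22 fell (13.6%, against 2.00% over all genes) and 0 rose, with a median of -0.27. With TREM2-/- replicate 1 left out, or with only the 2 groups in the fit, 1 fell, and voom called 1. The inflammatory cytokine gene Il1b lay at 31.0, 42.0, 34.6 and 47.5 RPKM in the knockout, against 56.4, 103 and 175 RPKM for the lowest, median and highest 5xFAD library. All 4 were below every 5xFAD library (log2 change -1.48 ± 0.262, adjusted p = 0.00132), a call kept in every fit that left out 1 library. Of 18 chemokine and chemokine receptor genes 5 fell (27.8%, against 2.00% over all genes), and 1 without TREM2-/- replicate 1. With 1 of TREM2-/- replicate 7 and 5xFAD replicates 4, 6, 8 and 9 left out, 3 fell. With only the 2 groups in the fit 3 fell as well. Cxcr4, the receptor for CXCL12, was 7.26 ± 1.32 RPKM in the knockout against 16.6 ± 5.89 RPKM in 5xFAD (log2 change -1.08 ± 0.232, adjusted p = 0.00852) and was among the genes that lost their call without TREM2-/- replicate 1.

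Some cell-cycle genes of mitosis were lower. Of 15 tested proliferation genes 5 fell (33.3%, against 2.00% over all genes) and 0 rose, with a median of -0.30. Ccnb2, the cyclin B2 gene, lay at 0.786, 1.14, 1.28 and 1.66 RPKM in the knockout and between 1.95 and 3.71 RPKM in 5xFAD. Cdk1, its kinase partner, lay at 1.01, 1.02, 1.09 and 1.16 RPKM and between 1.74 and 2.91 RPKM in 5xFAD. Neither gene overlapped between groups (log2 changes -0.88 ± 0.165 and -0.84 ± 0.126, adjusted p = 0.00224 and 0.000181). Mki67, a marker of cycling cells, fell from 1.93 ± 0.315 to 1.19 ± 0.154 RPKM (adjusted p = 0.00521) and stayed above the WT mean of 0.533 ± 0.101 RPKM (adjusted p = 0.000544). The minichromosome maintenance genes Mcm2, Mcm3, Mcm5 and Mcm6, which act at DNA replication, were not called. With the tag number in the library titles as a term, whose meaning the labels do not state, 2 of the 15 fell.

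**Figure D3:**
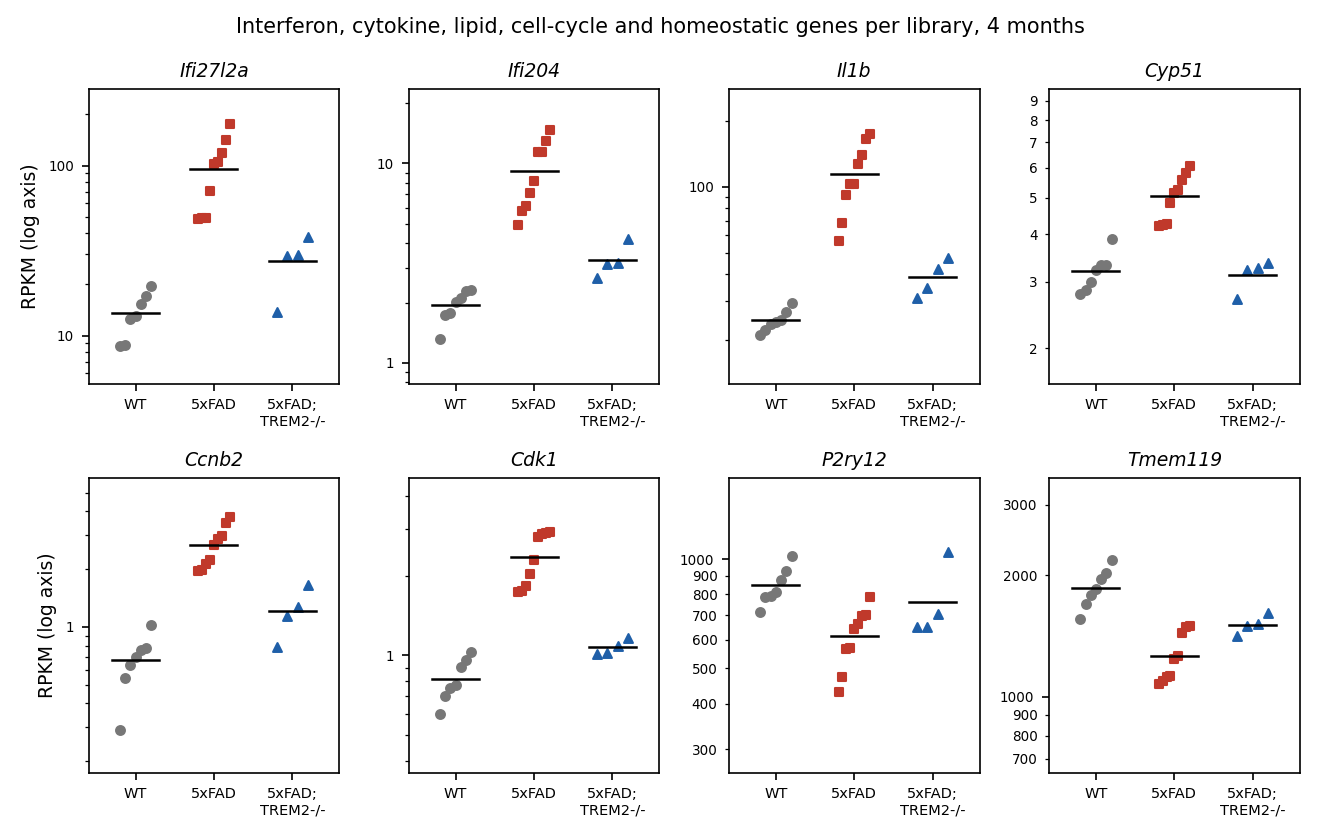
RPKM per library on a log axis at 4 months for 2 interferon-response genes, Il1b, Cyp51, 2 cell-cycle genes and 2 homeostatic genes, with 7 WT (circles), 9 5xFAD (squares) and 4 5xFAD;TREM2-/- libraries (triangles); black lines are group means. The 6 genes from Ifi27l2a to Cdk1 show no overlap between 5xFAD and the knockout, while P2ry12 and Tmem119 do.

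Some sterol genes were also lower. Of 18 genes of cholesterol synthesis and uptake 6 fell (33.3%, against 2.00% over all genes) and 0 rose, with a median of -0.28. Without TREM2-/- replicate 7, 3 fell, and with only the 2 groups in the fit 2 fell. Cyp51, an enzyme of sterol demethylation, lay at 3.36, 2.69, 3.26 and 3.22 RPKM in the knockout and between 4.20 and 6.04 RPKM in 5xFAD, with no overlap (log2 change -0.60 ± 0.0909, adjusted p = 0.000188). Srebf2, the transcription factor that drives these genes, fell from 20.3 ± 3.07 to 14.6 ± 1.1 RPKM (adjusted p = 0.0102), a call lost without TREM2-/- replicate 1 or 7. Of 16 genes of cholesterol export and its LXR control, Abcg1 rose, Npc2 and Ch25h fell and 13 were not called. The share called was 18.8%, against 2.39% over all genes.

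Calls among lysosomal and energy genes were above the share over all genes (2.00% lower) but unstable. Of 24 lysosomal genes 4 fell (16.7%), with counts from 0 to 8 when 1 library was left out. It was 0 without TREM2-/- replicate 1 or 9, 1 without TREM2-/- replicate 7 or 5xFAD replicate 4, 6, 8 or 9, 7 without 5xFAD replicate 13 and 8 without TREM2-/- replicate 3 or 5xFAD replicate 11. Of 21 glycolysis and mTOR genes 3 fell (14.3%), with 0 without TREM2-/- replicate 1 or 9, 1 without TREM2-/- replicate 7 or 5xFAD replicate 1, 4, 6, 8 or 9, and 5 without TREM2-/- replicate 3 or 5xFAD replicate 13. Of 24 nuclear genes of oxidative phosphorylation 2 fell (8.33%), Ndufa1 and Cox5b. Cox5b, a subunit of cytochrome c oxidase, lay at 11.98, 16.7, 19.2 and 16.4 RPKM against 19.98 to 28.0 RPKM in 5xFAD, with no overlap (log2 change -0.55 ± 0.0925, adjusted p = 0.000641).

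Markers of other cell types gave no call. Over 13 lists of markers of other cell types, limma and voom called 0 of 73 tested genes, and 8 had an unadjusted p under 0.05, against 11.6% of all genes. The summed level of the 8 endothelial markers ranged from 194 to 433 RPKM in the knockout and from 148 to 980 RPKM in 5xFAD. The 5 erythrocyte markers all had a log2 change below 0, with a median of -0.74, and summed to between 12.3 and 46.7 RPKM in the knockout and between 22.5 and 130.1 RPKM in 5xFAD. The 10 neutrophil markers summed to between 357 and 746 RPKM in the knockout and between 277 and 815 RPKM in 5xFAD, with 9 of 10 log2 changes above 0 and a median of 0.48. All 10 perivascular macrophage markers had a log2 change above 0, with a median of 0.36, and summed to between 27.3 and 48.2 RPKM in the knockout and between 18.5 and 53.5 RPKM in 5xFAD. The part of these cells in the results was not tested. Of the T and NK cell markers 0 of 11 passed the filter, with sums from 1.10 to 1.96 and from 0.766 to 2.91 RPKM. The T cell markers Cd3d, Cd3e and Cd3g were at or near 0 in all 13 libraries, and Snap25, a neuronal marker, stayed at or below 0.135 RPKM.

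Fewer genes rose, and 11 of the 51 lie within 10 Mb of Trem2. Of the 12 named increases, Treml4, Unc5cl, Apobec2, Glo1, H2-T24, Tnfrsf21 and Abcc10 are on chromosome 17. Treml4, a TREM-like receptor gene near Trem2 (chromosome 17, 48264295 to 48275360), lay at 2.84, 3.71, 2.93 and 2.84 RPKM in the knockout, against 0.114, 0.217 and 0.506 RPKM for the lowest, median and highest 5xFAD library and 0.102 to 0.548 RPKM in WT. It was 11.4-fold higher than the low 5xFAD mean of 0.271 RPKM (log2 change 2.23 ± 0.165, adjusted p = 2.57e-09), and the knockout stood apart from both other groups. All 4 knockout libraries, but no 5xFAD or WT library, reached the 1 RPKM of the gene filter. The entry of Treml4 into the test was thus not independent of its level in the knockout. Unc5cl, a death-domain protein gene on the other side of Trem2 (48454901 to 48539714), lay between 3.30 and 3.95 RPKM, against 0.580 to 1.15 RPKM in 5xFAD (log2 change 1.56 ± 0.0953, adjusted p = 7.21e-11). Apobec2, which lies between Trem2 and Unc5cl (48419231 to 48432930) and belongs to the cytidine deaminase family, was 4.86 ± 0.684 RPKM against 2.11 ± 0.512 RPKM (log2 change 1.05 ± 0.151, adjusted p = 0.000102).

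Glo1, the glyoxalase that detoxifies methylglyoxal (30584936 to 30626871), lay at 19.5, 15.8, 19.8 and 17.8 RPKM, against 7.47, 8.84 and 12.9 RPKM for the lowest, median and highest 5xFAD library. It was also above WT (log2 change 0.98 ± 0.103 against 5xFAD, adjusted p = 1.5e-06; log2 difference 0.76 from WT, adjusted p = 0.000175). H2-T24, a non-classical MHC class I gene (36005695 to 36020560), lay between 29.9 and 32.2 RPKM and was above both 5xFAD (13.4 to 20.5 RPKM, log2 change 0.96 ± 0.0856, adjusted p = 7.79e-08) and WT (12.7 to 17.8 RPKM). Tnfrsf21, death receptor 6, rose from 84.0 ± 8.07 to 132 ± 3.49 RPKM, and Abcg1, a lipid exporter on the same chromosome, from 49.8 ± 2.32 to 67.1 ± 2.54 RPKM, with no overlap in either.

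Genes near Trem2 fell as well. Treml2, a further TREM-like gene (48299498 to 48312533), lay at 1.81, 2.79, 2.46 and 2.28 RPKM in the knockout, against 7.11, 8.997 and 12.03 RPKM for the lowest, median and highest 5xFAD library (log2 change -1.77 ± 0.114, adjusted p = 1.63e-10). Mdfi, an inhibitor of myogenic transcription factors (47815328 to 47834691), lay at 1.48, 1.59, 1.42 and 1.599 RPKM against 4.47, 6.37 and 7.56 RPKM (log2 change -1.70 ± 0.131, adjusted p = 4.61e-09). Both genes were also below WT, Treml2 by a log2 difference of -1.13 (adjusted p = 1.99e-06) and Mdfi by -1.999 (adjusted p = 8.34e-10). Enpp5, an ectonucleotide phosphodiesterase family gene on the same chromosome, fell below both groups as well, to 2.04 ± 0.462 RPKM from 3.80 ± 0.615 in 5xFAD and 3.72 ± 0.689 in WT.

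Within 10 Mb of Trem2, with Trem2 left out, 17 of 143 tested genes were called (11.9%), 11 higher and 6 lower, against 2.27% of the 12880 genes elsewhere. Treml4, counted here, reached the filter level in no 5xFAD or WT library. Without TREM2-/- replicate 1 the count near Trem2 was 10. Within 5 Mb it was 13 of 83 (15.7%). Between 10 and 20 Mb, a band added after the data were seen, 16 of 211 were called (7.58%). The 2 double knockout libraries, which also lack TREM2 by their label, had 2.62 and 2.72 RPKM of Treml4, 18.5 and 16.4 RPKM of Glo1, 29.4 and 28.5 RPKM of H2-T24 and 1.29 and 1.97 RPKM of Mdfi, all on the knockout side of the 5xFAD range. In this design, loss of TREM2 and the chromosomal surroundings of its knockout allele cannot be told apart.

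**Figure D4:**
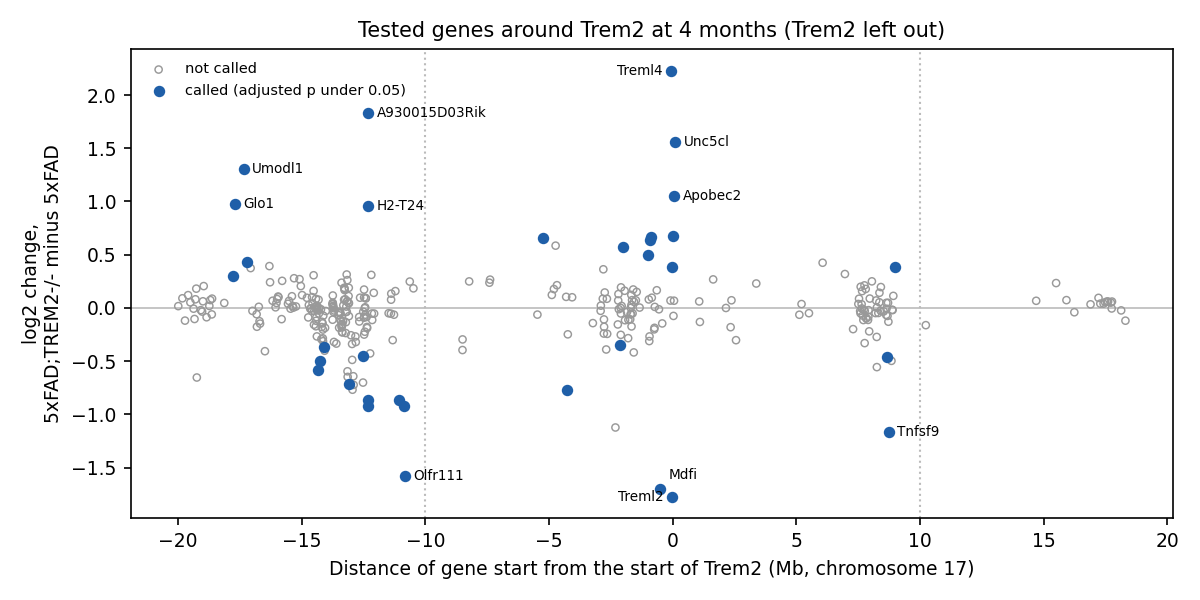
Log2 change at 4 months of tested chromosome 17 genes within 20 Mb of Trem2, by the gap in Mb between nearest ends. The axis title names gene starts, but the gap between nearest ends is plotted. Trem2 itself is left out, dotted lines mark 10 Mb, and filled points were called. Treml4, Unc5cl and Apobec2 stand above 1 and Treml2 and Mdfi below -1.5 close to distance 0, and further called genes lie between 10 and 20 Mb on the side of the MHC.

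Further increases were smaller or rested on few libraries. The first given here, Stab1, was not among the 12 largest. Stab1, a scavenger receptor gene, lay at 147, 162, 162 and 175 RPKM, against 104, 123 and 141 RPKM for the lowest, median and highest 5xFAD library and 147 to 189 RPKM in WT (log2 change 0.43 ± 0.0961, adjusted p = 0.0115), and lost its call without TREM2-/- replicate 9. Tmem52 was 16.3 ± 0.941 RPKM against 8.999 ± 2.78 RPKM in 5xFAD, and the chemokine receptor gene Ccr1 was 3.94 ± 0.913 against 2.31 ± 0.355 RPKM. Tmem52 lost its call without TREM2-/- replicate 1 or 9, and Ccr1 without TREM2-/- replicate 1 or 7. Ighg2b, an immunoglobulin heavy chain gene, lay at 6.12, 5.73, 3.95 and 1.28 RPKM in the knockout and at a median of 0.346 RPKM in 5xFAD, but 5xFAD replicate 1 reached 8.77 RPKM, above every knockout library (log2 change 1.86 ± 0.47, adjusted p = 0.0317). Calls of Ighg2b, of the sugar transporter gene Slc5a10 and of the transporter gene Abcg3 were lost in 8, 10 and 8 of the 13 fits that left out 1 library.

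Against WT, the 5xFAD;TREM2-/- libraries differed in 52 genes (0.399%), 42 higher (0.322%) and 10 lower (0.0768%). This comparison shares the knockout libraries with that against 5xFAD. The count was 31 without TREM2-/- replicate 3, 28 without replicate 7 and 30 without replicate 9. Cst7, Lpl, Clec7a, Ccl6 and Mki67 were among the higher genes, as was Actr3b, an actin-related protein gene, at 1.11 ± 0.501 RPKM in the knockout, 6.77 ± 2.74 in 5xFAD and 0.190 ± 0.0725 in WT (adjusted p = 0.0183 against WT). Among the 42 higher genes, Treml4, Unc5cl, H2-T24, Umodl1, Glo1, AI661453, Trerf1, Tnfrsf21, Abcc10 and Abcg1 lie on chromosome 17 within 20 Mb of Trem2. A930015D03Rik and B430306N03Rik, also higher, lie there too. Among the 10 lower genes, so do Treml2, Mdfi, H2-T23, H2-T22, Enpp5 and Khsrp. Of all 13024 genes tested, 143 lay within 10 Mb of Trem2 and 211 between 10 and 20 Mb, with Trem2 left out. Genes that fell from 5xFAD and did not pass against WT included Axl, Itgax, Ch25h, Il1b, Egln3, a prolyl hydroxylase gene of oxygen sensing, and Pdcd1, which encodes the inhibitory receptor PD-1. A difference that did not pass does not show that the level equals WT.

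The same genotypes at 8 months came from other libraries in a separate table, with 8 5xFAD;TREM2-/- and 10 5xFAD libraries, and no test crossed the tables. The titles of 2 of these knockout libraries carry a pair of numbers, 1 of these numbers recurs in a further knockout library, and whether all 8 are separate animals is not stated. There 2189 of 12622 genes were called (17.3%), 889 higher (7.04%) and 1300 lower (10.3%), and 1794 without libraries whose titles carry 2 numbers. Of the 311 genes called at 4 months, 304 were tested at 8 months and 280 of these (92.1%) were called in the same direction, with 0 in the opposite one. Those 280 were 12.99% of the 2155 genes called at 8 months that were also tested at 4 months. By direction, 243 of 257 lower and 37 of 47 higher genes were called again. Cst7 changed by -2.67 ± 0.133 on the log2 scale at 8 months, Lpl by -2.69 ± 0.107, Axl by -2.10 ± 0.109 and Il1b by -1.94 ± 0.167. Treml4 was again higher (1.596 ± 0.117), as were Glo1 (0.74 ± 0.11) and H2-T24 (0.98 ± 0.16). Late DAM genes were lower in 24 of 25 and early DAM genes in 9 of 9, among them Apoe (-0.81 ± 0.168, adjusted p = 0.00122). Enpp5 was not called at 8 months (-0.07 ± 0.118, adjusted p = 0.735), and neither were the interferon genes Rtp4, Mx1 and Irf9, although 12 of the 26 interferon-response genes tested at that age were lower. The difference in effect between the ages was not tested.

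**Figure D5:**
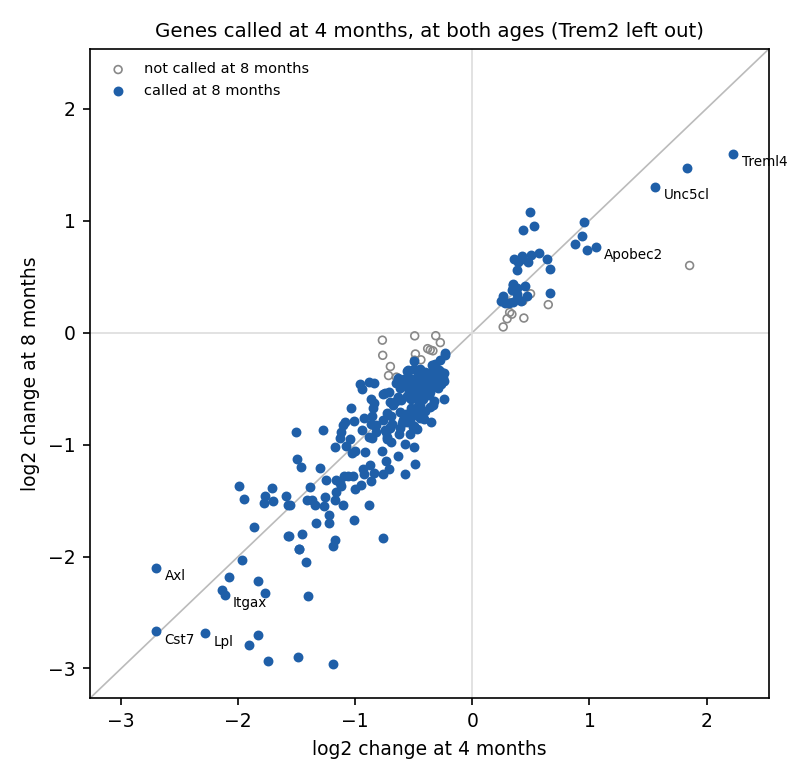
Log2 change in 5xFAD;TREM2-/- minus 5xFAD at 4 months (horizontal axis) and at 8 months (vertical axis) for genes called at 4 months and tested at both ages, without Trem2; filled points were also called at 8 months, and the diagonal marks equal change. No filled point lies on the opposite side of 0 at the 2 ages.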

How the data were processed

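Microglia were profiled in 26 libraries at 4 months, and 24 libraries of a separate table at 8 months served for a side-by-side reading. Per the submitters' processing notes, reads were handled with STAR, HTSeq and edgeR on mm10 (GRCm38); for versions, annotation and strand setting, the sources used here give nothing. The authors deposited RPKM values for 39179 genes. RPKM times gene length was a whole multiple of 1 step per library (100% of values within 0.05 reads), which gave the read totals. Over 42 pairs of libraries within groups, chi-square divided by its degrees of freedom was at least 10.4, so all pairs differed beyond sampling noise.

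Genes with RPKM of at least 1 in 2 or more libraries (6 at 8 months) were tested on the log2(RPKM + 0.5) scale, using limma (3.58.1, under R 4.3.3) with trended and robust moderation. Tests were two-sided, and p-values were adjusted by Benjamini and Hochberg's method across every tested gene. All 5 groups of the 4-month table shared 1 fit and its spread. Values after a mean RPKM are SD over 4 knockout, 9 5xFAD or 7 WT libraries. Named genes were Trem2, Tyrobp, Cd33 and App, the 12 largest called increases and decreases with an ordinary symbol and a mean of at least 2 RPKM in either group, and up to 4 members per list with the smallest p. Ank, Cd52, Igf1, Fgr, Enpp5, A930015D03Rik, H2-M3, Rtp4, Mx1 and Irf9, and the genes of the closing observations, were named after their values were seen. The members and the 40 gene lists were chosen with earlier results of these data known. Replicate numbers 1, 7 and 9 recur in both groups, but the deviations of same-numbered libraries correlated at -0.25, 0.01 and -0.10, so the numbers were not taken as pairs. Positions came from GENCODE M21, in which 37607 gene IDs were found. The fit was tested on simulated data. Alternatives were another pseudocount, filter, scaling, weighting or set of groups, covariates, voom on recovered reads and leaving out libraries. The planned edgeR and DESeq2 tests were not run, since the deposited unit is RPKM. Figures were drawn with matplotlib 3.10.9 in Python 3.11.15.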

Additional observations from a re-analysis of the deposited data

Results flagged for a closer look

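Over 67 genes whose values are given and 3 groups, 201 sets of libraries were screened with Dixon's ratio of gap to range for a single library far from the rest, and 15 (7.46%) held one. Chance passes this criterion in about 1 in 20 independent sets, and these sets share libraries. Among the 4 5xFAD;TREM2-/- libraries, replicate 3 was highest for Treml4 (3.71316 RPKM), H2-T23 (32.1857 RPKM) and Fgr (1.95011 RPKM), and replicate 1 was highest for the homeostatic genes P2ry12 (1042.34 RPKM) and Gpr165 (14.7384 RPKM). Among the 5xFAD libraries, replicate 1, which also had the highest Cldn5, was highest for App (222.752 RPKM) and Ighg2b (8.77212 RPKM), and replicate 10 for Glo1 (12.9443 RPKM) and Umodl1 (0.432791 RPKM), both on chromosome 17. Among the WT libraries, the highest values standing apart were Cd52 in replicate 8 (69.055 RPKM), Mki67 in replicate 10 (0.738822 RPKM), Abcg1 in replicate 9 (55.1937 RPKM) and Umodl1 in replicate 13 (0.387645 RPKM). The lowest values standing apart there were Unc5cl in replicate 13 (0.753121 RPKM) and Abcc10 in replicate 1 (3.08759 RPKM).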

How the results depend on the processing

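Against 5xFAD, the 311 calls became 148 with only these 2 groups in the fit, 178 with the title tag as a term, 499 with array weights, 474 with an endothelial covariate, 485 with an Xist covariate and 184 without libraries holding both Xist and Y-linked reads. The endothelial covariate gave 127 higher and 347 lower genes, 26.8% higher against 16.4%. Leaving out 1 library gave 157 (without TREM2-/- replicate 1) to 433 (without 5xFAD replicate 13). With the replicate block, using the numbers shared by both groups, 2 genes were called, 0 near Trem2 and 1 against WT; the numbers do not pair the samples, and this block changed the calls more than any other setting. Near Trem2 the 17 calls ranged from 10 to 19 when 1 library was left out. Against WT the 52 calls became 82 with 2 groups, 34 with the tag, 192 with array weights and 31 without the libraries holding both kinds of reads, and 28 to 52 when 1 library was left out. The causes were not tested. Another pseudocount, filter or scaling and voom gave 259 to 342 calls against 5xFAD. No change among the 311 switched sign under any of these settings in which it was tested, but these genes were selected in the same libraries. Of 99 named genes that were called, 53 kept their call in every setting outside the block. At 8 months counts stayed between 1794 and 2591. Planned edgeR and DESeq2 tests were not run. With 4 knockout libraries, small changes of low genes are the least certain.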

Other observations

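Further genes fell in 5xFAD;TREM2-/- at 4 months, and those outside the lists were named after their values were seen. Niacr1, the receptor for niacin and ketone bodies, was 9.75 ± 1.95 RPKM in the knockout and 32.8 ± 13.8 in 5xFAD, without overlap (adjusted p = 0.000385 by limma). Baiap2l2, which shapes membranes at actin-rich protrusions, was 3.95 ± 1.82 against 14.9 ± 5.15 RPKM and remained above its WT mean of 0.149 ± 0.0641 RPKM (adjusted p = 6.54e-07). Capg, an actin-capping protein gene, was 19.97 ± 2.92 against 46.3 ± 11.2 RPKM. Cybb, the catalytic subunit of the phagocyte NADPH oxidase, was 3.53 ± 0.742 against 8.58 ± 3.21 RPKM, and Lgals3bp, a galectin-binding glycoprotein gene, was 132 ± 33.3 against 285 ± 91.5 RPKM; both overlapped between groups. Cd72, an inhibitory receptor of the list of Siglecs and ITIM receptors, was 3.00 ± 0.754 against 6.72 ± 1.87 RPKM.

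Pianp and Tmem163, both among the largest decreases, changed by -1.91 and -1.83 on the log2 scale at 4 months and by -2.79 and -2.70 at 8 months, and the difference between ages was not tested. On chromosome 17, H2-M3, a non-classical MHC class I gene, was 21.1 ± 2.6 against 39.0 ± 6.46 RPKM, and H2-Oa, of the MHC class II pathway, was 32.1 ± 3.77 against 45.7 ± 6.46 RPKM. Umodl1, on the same chromosome, was higher at 1.13 ± 0.184 against 0.160 ± 0.108 RPKM (adjusted p = 1.5e-06), as was Abcc10 at 5.61 ± 0.449 against 3.63 ± 0.415 RPKM. No 5xFAD or WT library reached the 1 RPKM of the gene filter for Umodl1. The homeostatic gene Gpr165 was 11.6 ± 2.11 against 7.83 ± 2.71 RPKM and was not called (adjusted p = 0.135).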
